A study of Mus musculus with 2 samples.

Results

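The receptors through which marrow cells read hematopoietic cytokines were described here by 9 genes, Epor, Csf3r, Csf2rb, Il7r, Kit, Flt3, Csf1r, Ifnar1 and Ifngr1. They were taken by symbol from the gene list of the series, and all 9 were found among its 32285 genes. Single-cell RNA was measured in femoral bone marrow of 1 WT mouse, which per the study carried Ddx41 fl/fl without VavCre and wild-type cGas, and of 1 DKO mouse, VavCre:Ddx41 fl/fl cGAS-/-, both 2 months old. VavCre is active in blood-forming cells, so Ddx41, a DEAD-box helicase, is removed from the hematopoietic lineages, whereas the DNA sensor cGAS is missing from the whole animal. Each genotype is 1 library from 1 mouse, so no test between genotypes can be made, and every interval printed is a 95% interval of counting error only. A difference between these libraries may be a difference between these 2 mice or their preparation, which cannot be told apart from genotype.

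Cytokine receptors fall into structural families that signal in different ways. Epor, Csf3r, Csf2rb and Il7r are type I cytokine receptors without a kinase of their own, which depend on bound JAK kinases to activate STAT proteins. Kit, Flt3 and Csf1r are receptor tyrosine kinases, whose own intracellular domains phosphorylate the cell's signalling proteins after the ligand pairs them. Ifnar1 and Ifngr1 are chains of the type I and type II interferon receptors, which act through JAKs and STAT proteins. In marrow these genes mark lineage choice, with Kit on stem and progenitor cells, Flt3 on early lymphoid and dendritic precursors, Epor on red cell precursors, Csf3r on neutrophils, Csf1r on monocytes and macrophages and Il7r on lymphocytes.

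The values were unique molecular identifiers (UMIs), each standing for 1 captured mRNA molecule. After cell calling, 18726 WT cells with a median of 4873 UMIs and 13719 DKO cells with a median of 6900 UMIs were kept. The deposited DKO table held called cells only and the WT table held all barcodes, and 75 barcodes were found among the kept cells of both libraries. Cells were placed in 20 classes by marker genes after clustering without the 9 receptors, and in all 20 every marker of the class was detected in both libraries. A level is the receptor's UMIs summed over a class per 1000000 UMIs of that class (CPM), and a ratio is log2 of DKO over WT. Of the deleted genes, Ddx41 was 20.3 CPM in WT and 7.99 CPM in DKO over all cells, and it was lower by at least 1.5-fold with an interval below 0 in 13 of 16 classes compared. Cgas was 13.5 and 7.24 CPM over all cells, but lower in only 2 of 12 classes, with 20.4 CPM in both libraries in immature neutrophils and 38.3 and 30.4 CPM in granulocyte-monocyte progenitors. Reads of this assay come from transcript ends, and the sources used here do not place the deleted exons, so the remaining UMIs do not show whether an allele was intact.

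Each receptor had the same class of highest level in WT and in DKO, 9 of 9. The class was early erythroid for Epor, mature neutrophil for Csf3r, basophil or mast cell for Csf2rb, pre-B and immature B for Il7r and stem and multipotent progenitor for Kit. For Flt3 and Ifnar1 it was the plasmacytoid dendritic class, and for Csf1r and Ifngr1 it was the Ly6C-low monocyte. The interval of the leading class overlapped that of the next class for Il7r and Ifnar1 in DKO and for Ifngr1 in WT. The agreement was 8 of 9 when only barcodes above a higher UMI threshold were used, at a coarser clustering, and when each cell was thinned to 1000 UMIs.

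**Figure D1:**
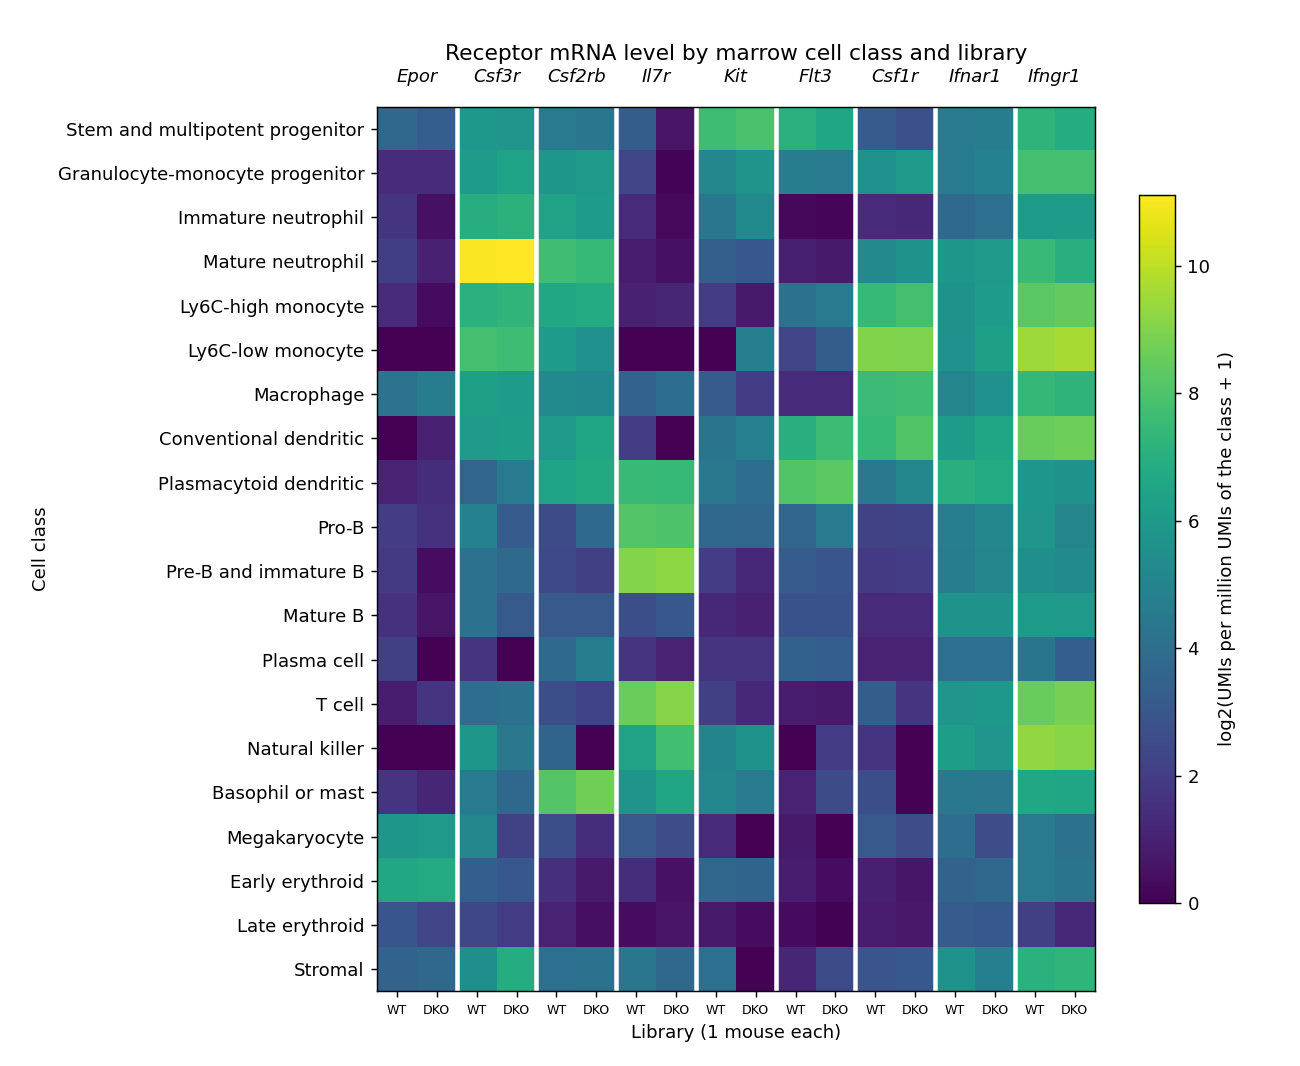
Level of each receptor in each of 20 cell classes, in the WT and the DKO library side by side. Color gives log2 of CPM plus 1, rows are classes and column pairs are genes, and colors are to be compared down a column, not across genes. The brightest cell of each pair stands in the same row in both libraries, for example Csf3r in mature neutrophils at 2141 and 2213 CPM.

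A ratio was compared where a class held at least 50 cells in each library and the receptor had at least 20 UMIs in both together. It was counted as higher or lower when it reached 1.5-fold and its counting interval lay off 0. Of 123 receptor and class pairs compared, 11 were higher in DKO (8.94%) and 17 were lower (13.8%). Among all 174759 gene and class pairs held to the same rule, 6.32% were higher and 8.05% lower. The median ratio of the receptor pairs was -0.01 and that of all genes was 0.04. Many of the 28 pairs rested on few molecules. Of the 11 higher pairs 2, and of the 17 lower pairs 9, kept their call in every alternative setting where they could be compared. Some of them could be compared in fewer settings than others, Csf3r in megakaryocytes in 6 and Kit in immature neutrophils in 8. None of the settings removed RNA that was free in the droplets. The kept calls included Epor in immature and mature neutrophils and Csf3r in megakaryocytes and stromal cells, whose WT counts lay within that background, as given below. Depth per cell differed between the libraries in most classes, so shares of cells with a UMI are mostly given with those of cells thinned to 1000 UMIs. Shares of cells with 2 receptors were not thinned.

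**Figure D2:**
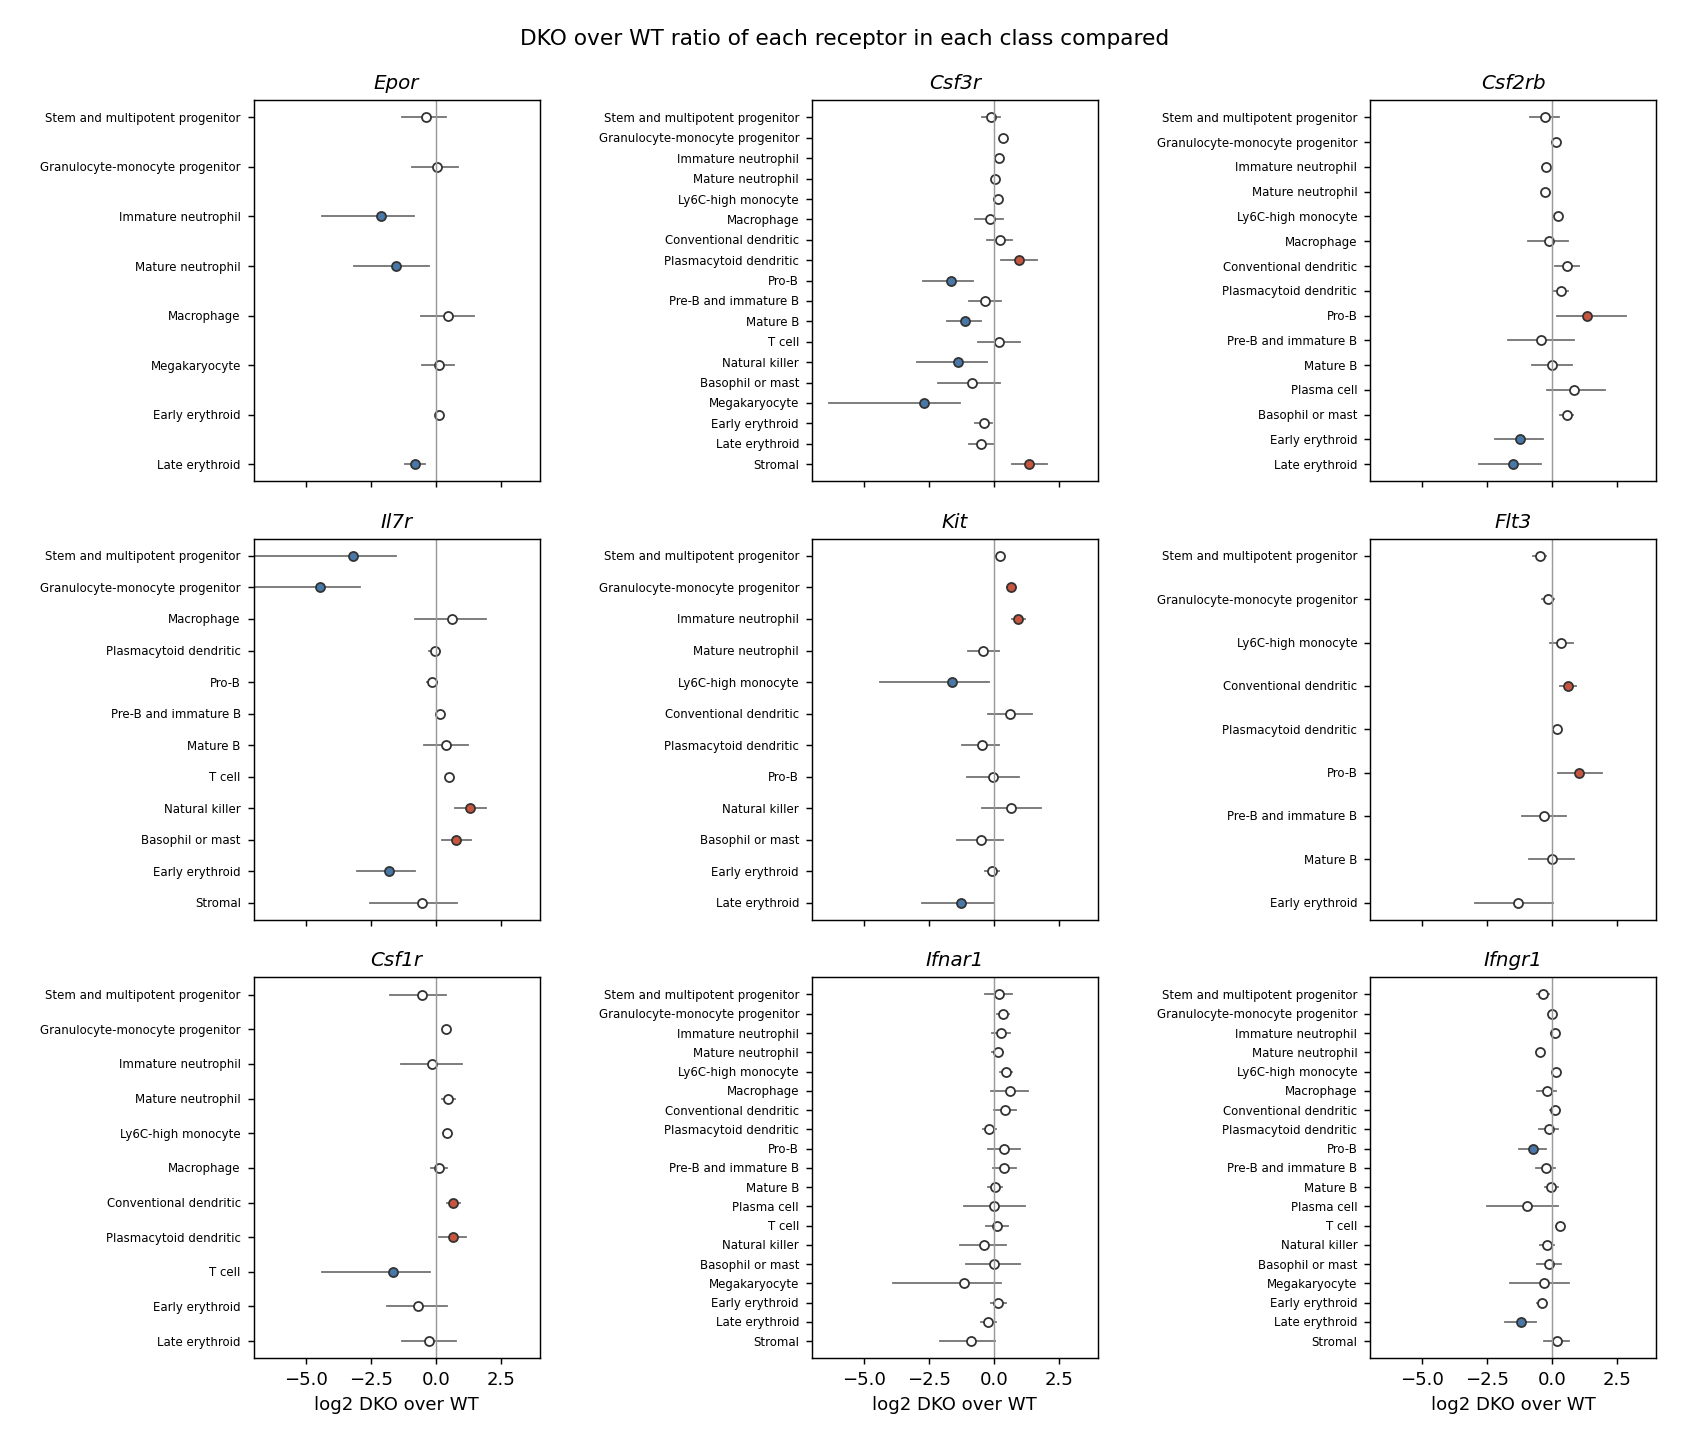
Ratio of DKO over WT on the log2 scale for each receptor in each class compared (points) with 95% counting intervals (lines). Filled points passed the 1.5-fold rule, red for higher and blue for lower in DKO, and open points did not. The axis ends at -7, so the lower ends of 2 Il7r intervals lie outside it. Most open points sit near 0, and Kit stands out with red points in the granulocyte-monocyte progenitor (0.68) and immature neutrophil (0.95) classes.

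Epor, the erythropoietin receptor, drives survival and expansion of red cell precursors, and it was concentrated there. The gene lies at chr9:21958897-21963506 on the minus strand (GRCm38). Early erythroid cells held 1662 Epor UMIs in WT and 2598 in DKO, which is 79.6% and 91.6% of all its UMIs. The promoter is shown because the marker list of the class that carries Epor holds Klf1 and Gata1, factors known to bind such letters. It is the 250 bases before the RefSeq start, chr9:21963577-21963826 (GRCm38.p6, minus strand), with capitals for matches to AGATAA (bound by GATA factors) or CCNCNCCC (a KLF motif) on either strand.
Epor promoter: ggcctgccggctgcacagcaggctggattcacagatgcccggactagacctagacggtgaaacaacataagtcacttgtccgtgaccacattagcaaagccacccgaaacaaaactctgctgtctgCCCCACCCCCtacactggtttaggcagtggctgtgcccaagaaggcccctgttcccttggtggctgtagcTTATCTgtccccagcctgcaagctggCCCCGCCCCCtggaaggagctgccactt
The single AGATAA match, on the reverse strand, lay 54 to 49 bases before the start, and 4 overlapping CCNCNCCC matches formed the capital blocks on both sides of it. Of 32851 promoter windows of the same length, 9.99% held AGATAA and 45.9% held CCNCNCCC, so these matches describe the window and show no binding.

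Within early erythroid cells the Epor level was close in both libraries, 101 CPM in WT and 111 CPM in DKO, a ratio of 0.13 (0.04 to 0.22). The share of these cells with an Epor UMI was 42.1% in WT and 52.5% in DKO, but at 1000 UMIs per cell it was 9.95% and 9.63%. In T cells, which should lack the receptor, it was 0.408% and 1.36% at median depths of 4206 and 5415 UMIs, against 6070 and 10203 UMIs in early erythroid cells. The higher share before thinning in DKO thus stood beside a higher depth, and the thinned shares overlapped in their intervals.

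Over all cells Epor was 17.5 CPM in WT and 24.7 CPM in DKO (ratio 0.50, 0.42 to 0.58). Early erythroid cells made up 11.6% of WT and 14.9% of DKO cells. In sums over all cells, more cells of a type and more RNA per cell cannot be told apart. Megakaryocytes, which descend from a progenitor shared with red cells, were the class with the next highest level, 58.4 and 62.6 CPM (ratio 0.12, -0.51 to 0.69).

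Erythroid cells were also ordered by the share of their UMIs that came from hemoglobin genes, a stage measure that uses none of the receptors. Epor was 91.7 CPM in WT and 89.4 CPM in DKO in cells under 15% hemoglobin, and 124 and 128 CPM from 15 to 40%. From 40 to 75% it was 73.8 CPM in WT and 98.6 CPM in DKO (ratio 0.42, 0.28 to 0.56). Above 75% it was at most 3.86 CPM in both libraries. Above 90% the ratio had the opposite sign (-1.94, -3.71 to -0.06), on 6 and 7 UMIs. From 40 to 75% erythroid genes with an early peak were higher in DKO too, with a ratio of 0.38 for Klf1 and 0.48 for Gata1, while that of the heme synthesis gene Alas2 was -0.10. The transferrin receptor gene Tfrc was higher there by 0.48, but also by 0.50 and 0.39 in the earlier bins, in which the Epor intervals included 0. Whether cells of this range were at an earlier stage in DKO was not tested.

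Kit and the interferon gamma receptor chain Ifngr1 were concentrated in the least hemoglobinized erythroid cells. Kit was 28.2 CPM in WT and 34.8 CPM in DKO under 15% hemoglobin and at most 1.56 CPM in any later bin. Ifngr1 was 56.6 and 52.4 CPM in the first bin and 2.89 and 3.61 CPM in the next. Ifnar1 did not follow this course, with 10.7 and 11.5 CPM in the first bin and 19.7 and 16.8 CPM from 40 to 75%. From 75 to 90% Ifnar1 was 4.13 CPM in WT and 8.56 CPM in DKO (ratio 1.04, 0.57 to 1.54), in a bin where Tfrc was also higher in DKO by 1.23.

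**Figure D3:**
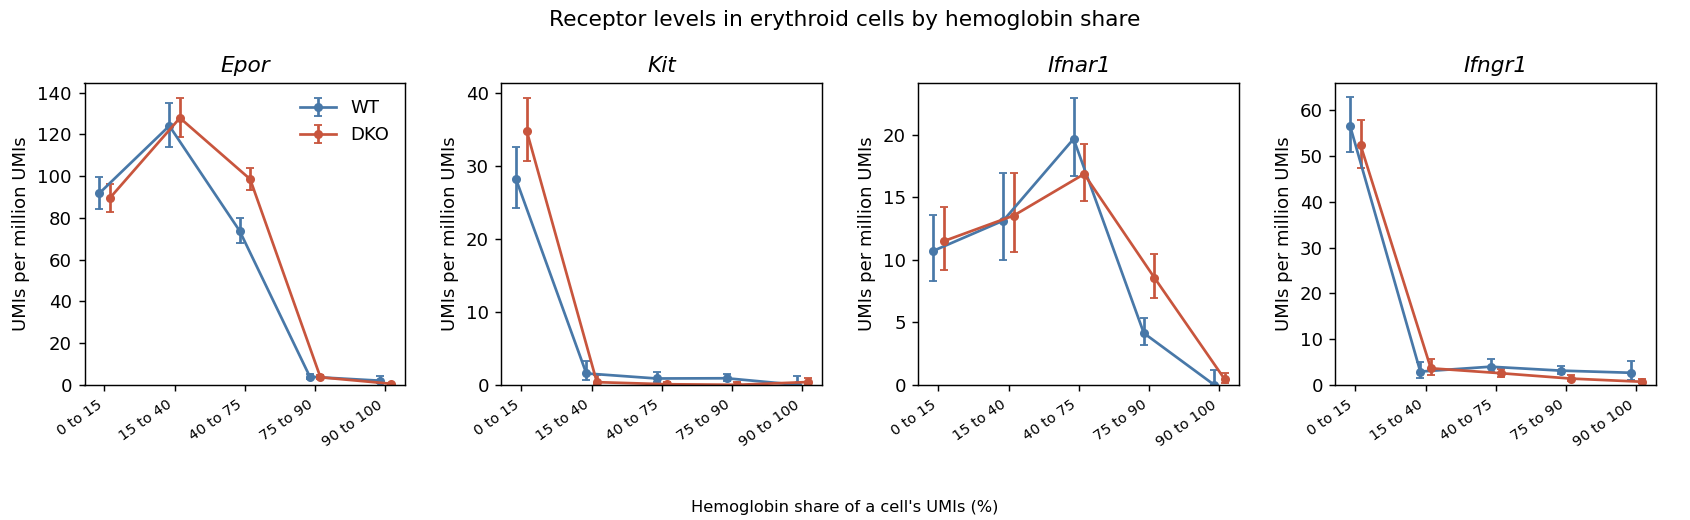
Levels of Epor, Kit, Ifnar1 and Ifngr1 in erythroid cells by the hemoglobin share of a cell's UMIs, WT in blue and DKO in red, in CPM with 95% exact Poisson intervals as bars. Kit and Ifngr1 drop after the first bin in both libraries, whereas Epor peaks from 15 to 40% and is still 73.8 CPM in WT and 98.6 CPM in DKO from 40 to 75%.

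In the late erythroid class 4 of 7 receptors compared were lower in DKO, Epor, Kit, Csf2rb and Ifngr1, and none was higher. This class gave 51.9% of all genes lower, with a median ratio of all genes of -0.81, or -0.51 when hemoglobin UMIs were left out of the total. The share of hemoglobin UMIs was 83.0% in WT and 86.2% in DKO. Epor was 6.87 and 3.97 CPM (ratio -0.79), which is close to that median. Its call was lost in 4 of 8 settings, with -0.49 when hemoglobin was left out, -0.53 with doublets kept, -0.75 in thinned cells and -0.04 with the receptors among the clustering genes. In early erythroid cells, where 9.85% of genes were lower, Csf2rb (30 and 18 UMIs) and Il7r (28 and 11 UMIs) were lower at under 2 CPM.

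Epor UMIs outside these lineages were few. Immature neutrophils held 23 in 1041 WT cells and 4 in 738 DKO cells, and mature neutrophils held 16 and 7, so both pairs were counted as lower in DKO, as were 4.54% and 10.3% of all genes. In WT droplets without cells Epor was 37.6 CPM, and no such droplets of DKO were analysed here. If all hemoglobin UMIs of these neutrophil classes came from such free RNA, it would bring 89.3 and 92.0 Epor UMIs, more than were seen, so these 2 pairs lie within background. Natural killer cells had 0 Epor UMIs in 99 WT and 54 DKO cells.

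Kit, the receptor for stem cell factor, maintains stem cells, early progenitors and mast cells. Its locus is chr5:75574916-75656722 on the plus strand. Its promoter is shown for contrast with Epor, in the 179 bases upstream of the annotated gene, chr5:75574737-75574915 (GRCm38.p6, plus strand), with capitals for matches to GAGGAA (an ETS motif) or to CCNCNCCC on either strand.
Kit promoter: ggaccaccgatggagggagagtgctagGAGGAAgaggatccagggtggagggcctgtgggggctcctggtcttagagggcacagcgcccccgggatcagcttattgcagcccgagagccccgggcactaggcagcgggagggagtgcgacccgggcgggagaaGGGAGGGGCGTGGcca
The 250 bases before the first listed Kit start held no AGATAA, 1 GAGGAA and 2 overlapping CCNCNCCC matches, with a GC content of 70.8% against 58.8% for Epor and a median of 52.4% over all windows. GAGGAA was present in 23.3% of all windows. Among the other receptors whose promoter was taken, GAGGAA matched once in each of Csf3r and Ifnar1. CCNCNCCC matched in Csf3r, Flt3, Ifnar1 and Ifngr1, and the Il7r window held none of the 3 motifs at a GC content of 44%.

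In stem and multipotent progenitors Kit was 203 CPM in WT (767 UMIs in 283 cells) and 239 CPM in DKO (475 UMIs in 99 cells), a ratio of 0.24 (0.07 to 0.40). A Kit UMI was seen in 79.5% and 89.9% of these cells, and at 1000 UMIs per cell in 21.3% and 26.3%. Mature B cells, which should lack Kit, had a UMI in 0.327% and 0.321%, at median depths of 2560 and 3643 UMIs against 11238 and 16823. The Kit level of the stem class was thus far above background in both libraries and did not reach a 1.5-fold difference.

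Past the stem class the Kit levels diverged. Granulocyte-monocyte progenitors, the precursors of neutrophils and monocytes, had 33.1 CPM in WT (681 UMIs) and 52.9 CPM in DKO (573 UMIs), a ratio of 0.68 (0.51 to 0.84). Immature neutrophils had 19.7 CPM in WT (207 UMIs) and 38.0 CPM in DKO (359 UMIs), a ratio of 0.95 (0.70 to 1.20). These were the only higher pairs among the receptors compared in each of the classes, where 7.19% and 8.9% of all genes were higher.

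The share of cells with a Kit UMI moved in the same direction. It was 29.9% in WT and 44.0% in DKO granulocyte-monocyte progenitors, and 14.9% and 31.7% in immature neutrophils. At 1000 UMIs per cell it was 2.51% (1.61 to 3.71) and 4.18% (2.41 to 6.70) in the former and 2.48% (1.61 to 3.64) and 4.49% (3.09 to 6.29) in the latter, so these thinned intervals overlapped. The UMIs were spread over many cells, and without the 5 fullest cells of each library the ratios were 0.57 and 0.97. Across the alternative settings the ratio stayed between 0.62 and 0.79 in the progenitors and between 0.87 and 0.99 in immature neutrophils, but in thinned cells the progenitor ratio of 0.79 no longer passed the rule. Free RNA could at most account for 7% of the Kit UMIs of WT progenitors and 22% of those of WT immature neutrophils.

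Neutrophil clusters were then laid out by their leading genes, from Elane through Chil3, Orm1 and Mmp8 to Retnlg, Cstdc4 and Il1b. Kit was 35.4 CPM in WT and 70.6 CPM in DKO in the Elane cluster, the neutrophil arm of the progenitors. It was 27.1 and 42.2 CPM in the Chil3 cluster, 14.6 and 34.0 CPM in the Orm1 cluster and 14.4 and 25.2 CPM in the Mmp8 cluster, which carried no class name. The ratios of these 4 clusters were 0.99, 0.63, 1.21 and 0.79, and all 4 intervals lay above 0. In the Retnlg cluster Kit was 9.92 and 11.5 CPM (ratio 0.20, -0.54 to 0.99), and in the last 2 clusters the ratio was -1.02, with an interval around 0, on 5 and 10 UMIs and -1.86 (-4.61 to -0.38) on 16 and 3 UMIs. Kit thus declined along the series in both libraries, with DKO above WT in the first 4 clusters. In WT mature neutrophils, the class of the Retnlg, Cstdc4 and Il1b clusters, free RNA could bring 46.3 of the 48 Kit UMIs. The Kit levels of these mature clusters thus lie near background.

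Other genes moved beside Kit in these clusters. The proliferation gene Mki67 was 232 CPM in WT and 368 CPM in DKO in the Elane cluster. It was 694 and 842 CPM in the Chil3 cluster and 181 and 250 CPM in the Orm1 cluster. In the Mmp8 cluster it was 21.2 and 14.6 CPM, near its level in the mature Retnlg cluster, 23.2 and 13.1 CPM. Cebpe was higher in DKO in the Mmp8 cluster, 225 and 288 CPM (ratio 0.36, 0.24 to 0.48). Its ratios in the Elane, Chil3 and Orm1 clusters were -0.14, -0.05 and -0.02. The progenitor marker list was lower in DKO in immature neutrophils by 0.40. Mpo, the myeloperoxidase gene of early granulocytes, was 4616 CPM in WT and 5283 CPM in DKO in the Elane cluster (ratio 0.20, 0.17 to 0.22). In the Chil3 cluster it was 20.3 and 11.6 CPM, a low level that the mature Cstdc4 cluster exceeded in WT (39.3 CPM). The part of these genes in the Kit difference was not tested. In the monocyte arm of the progenitors Kit was 32.0 and 45.1 CPM (ratio 0.50, 0.29 to 0.70). Ly6C-high monocytes held 17 Kit UMIs in WT and 3 in DKO and were counted as lower (ratio -1.63), as were 4.87% of all genes, but free RNA could bring 28.7 UMIs to the WT cells and the ratio was 0.034 at a coarser clustering.

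Csf3r, the receptor for G-CSF, the chief growth factor of neutrophils, climbed along the same series. In the Elane cluster it was 82.8 CPM in WT and 132 CPM in DKO. In the Chil3 cluster it was 99.9 and 120 CPM, so this first step went down in DKO. It was 318 and 361 CPM in the Mmp8 cluster and 3573 and 4072 CPM in the Il1b cluster. The ratio was 0.67 (0.49 to 0.86) in the Elane cluster, and in the other 6 clusters it lay between -0.11 and 0.27. In the next 3 clusters, Chil3, Orm1 and Mmp8, it was 0.27, 0.19 and 0.18 with intervals above 0. Csf3r was thus higher in DKO in the same 4 clusters as Kit, past 1.5-fold in the first, and again in the Il1b cluster (0.19). These later shifts were small. In the immature neutrophil class, which joins the Chil3 and Orm1 clusters, the Csf3r ratio was 0.19 and the median of all genes was 0.15.

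**Figure D4:**
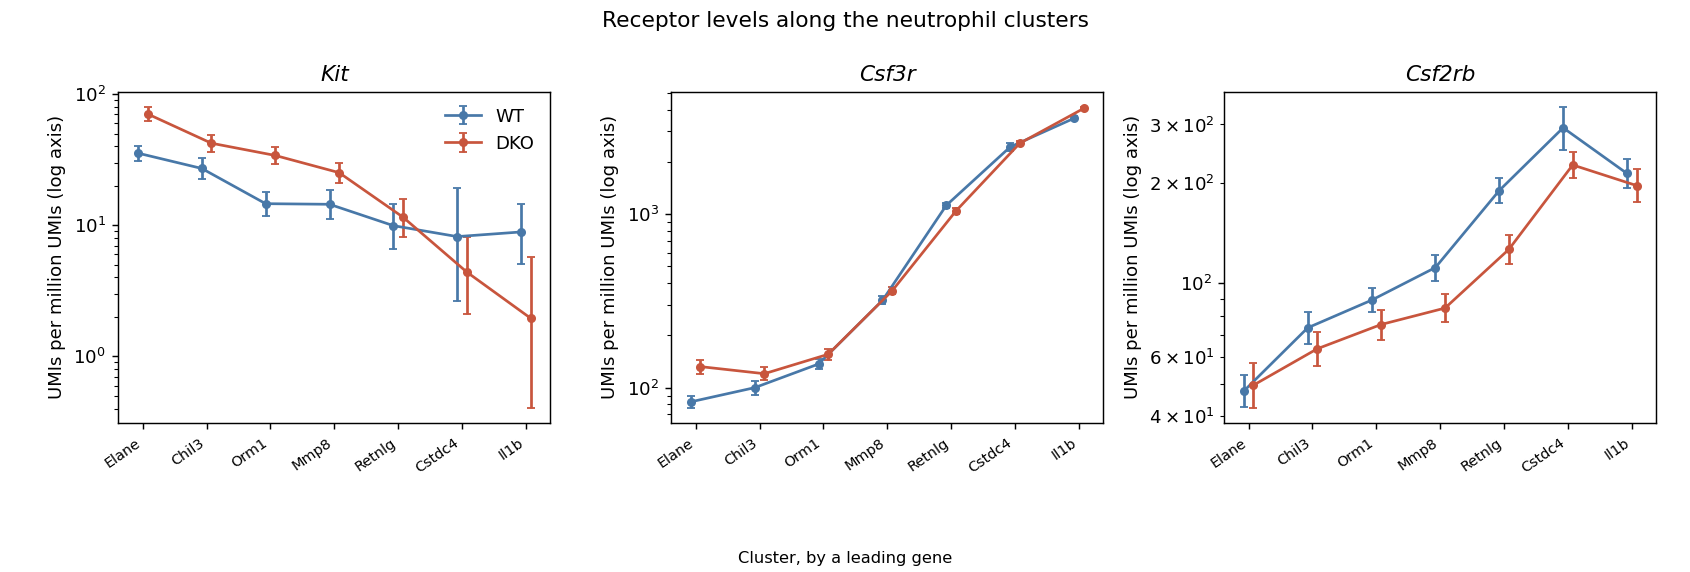
Levels of Kit, Csf3r and Csf2rb in 7 neutrophil clusters named by a leading gene, from progenitor to mature, WT in blue and DKO in red, in CPM on a log axis with 95% exact Poisson intervals as bars. Kit falls from left to right in both libraries. Csf3r climbs, except for a step from 132 to 120 CPM between the Elane and Chil3 clusters in DKO. Kit in DKO is above WT in the first 4 clusters, and Csf2rb in DKO is below WT in the Orm1, Mmp8, Retnlg and Cstdc4 clusters.

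Mature neutrophils as a class held 64.9% of all Csf3r UMIs in WT and 73.9% in DKO. The level was 2141 CPM in WT and 2213 CPM in DKO (ratio 0.05, 0.01 to 0.08), and 96.7% and 98.6% of the cells had a UMI, or 81.5% and 81.1% at 1000 UMIs per cell. Mature neutrophils were 8.83% of WT and 13.6% of DKO cells, and over all cells Csf3r was 142 and 181 CPM (ratio 0.35). The Cstdc4 cluster was 12.0% of the mature class in WT and 35.3% in DKO, so the class was compared by cluster as well. Csf3r lies at chr4:126024550-126044440 on the plus strand.

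Csf3r calls in other classes rested on few cells. It was lower in DKO in pro-B cells (47 and 13 UMIs), mature B cells (76 and 30), natural killer cells (26 and 7) and megakaryocytes (43 and 2), where 3.4%, 4.75%, 4.98% and 10.1% of all genes were lower. It was higher in plasmacytoid dendritic cells (40 and 38 UMIs, 11.4 and 22.3 CPM) and stromal cells (34 and 48 UMIs, 44.9 and 116 CPM), where 7.92% and 10% of all genes were higher. In natural killer cells the UMIs came from 4 cells in WT and 1 in DKO. The WT UMIs of mature B cells, megakaryocytes, plasmacytoid dendritic cells and stromal cells lay under the 274, 94.5, 100.5 and 62.2 UMIs that free RNA could bring by the bound used for Epor, so these WT counts lie within background. With doublets kept the ratio was -0.11 in mature B cells and -0.65 in natural killer cells, and neither passed the rule. Mature neutrophil markers moved beside it in 2 of these classes, with a summed level of 56.7 CPM in WT and 259 CPM in DKO in plasmacytoid dendritic cells and 147 and 628 CPM in stromal cells. In plasmacytoid dendritic cells the ratio of 0.96 was 0.16 without the 5 fullest cells and -0.26 when doublets were kept.

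Csf2rb, the common beta chain of the GM-CSF, IL-3 and IL-5 receptors, was led by basophils or mast cells, which respond to IL-3. Its level there was 279 CPM in WT (258 UMIs) and 411 CPM in DKO (326 UMIs), a ratio of 0.56 (0.32 to 0.80) that fell just under 1.5-fold. Along the neutrophil clusters it was 190 CPM in WT and 126 CPM in DKO in the Retnlg cluster (ratio -0.59, -0.78 to -0.40). It was 112 and 84.3 CPM in the Mmp8 cluster (ratio -0.40) and 293 and 227 CPM in the Cstdc4 cluster (ratio -0.38). In the Orm1 cluster its ratio was -0.24 (-0.44 to -0.05). Csf2rb thus went the opposite way from Kit in the Orm1 and Mmp8 clusters, where the intervals of both genes lay off 0.

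Over whole classes the Csf2rb difference in neutrophils was smaller, 211 CPM in WT and 175 CPM in DKO in mature neutrophils (ratio -0.27, -0.39 to -0.15). In Ly6C-high monocytes it was 98.9 and 114 CPM and in plasmacytoid dendritic cells 85.6 and 108 CPM. Pro-B cells were counted as higher in DKO on 8 against 20 UMIs, as were 5.66% of all genes there. Free RNA could bring 10.2 UMIs to the WT cells, and it was a call that was lost with doublets kept or with the receptors among the clustering genes.

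Csf2rb has a near-identical neighbour, Csf2rb2, the mouse beta chain that serves IL-3 alone. The genes lie 20030 bases apart, Csf2rb at chr15:78325752-78353847 on the plus strand. Of the 50-base words in the last 500 bases of Csf2rb transcripts, 6.64% occurred in Csf2rb2, so a small part of the UMIs could be assigned to either. Csf2rb2 gave 46.0% of the UMIs of the pair in WT and 42.0% in DKO plasmacytoid dendritic cells, 25.4% and 20.3% in basophils or mast cells and 6.81% and 4.26% in mature neutrophils. Csf2rb2 was itself lower in DKO in immature neutrophils (81 and 44 UMIs, ratio -0.71) and mature neutrophils (79 and 54 UMIs, ratio -0.97).

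The chains that pair with Csf2rb were compared as well. Csf2ra, the GM-CSF alpha chain, was 135 CPM in WT and 140 CPM in DKO in mature neutrophils and 158 and 140 CPM in Ly6C-high monocytes, and it was lower in DKO in T cells (45 and 13 UMIs) and late erythroid cells among 17 classes. Il3ra, the IL-3 alpha chain, was 97.4 and 106 CPM in basophils or mast cells and passed the rule in none of 15 classes. In the Orm1 cluster the ratio was -0.25 for Csf2ra and -0.24 for Csf2rb. Over all cells it was -0.38 for Csf2ra and -0.22 for Csf2rb. For Il3ra it was -0.60 over all cells and passed the rule, where 13.9% of all genes were lower.

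Il7r, the IL-7 receptor alpha chain that developing lymphocytes need, was led by pre-B and immature B cells with 522 CPM in WT and 593 CPM in DKO (ratio 0.18, 0.09 to 0.28). Pro-B cells had 277 and 253 CPM and mature B cells 5.33 and 6.98 CPM. Within the B lineage the Il7r level thus peaked between the pro-B and mature stages in both libraries. The gene lies at chr15:9505788-9530176 on the minus strand.

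Outside the B lineage T cells had 383 CPM of Il7r in WT (936 UMIs) and 550 CPM in DKO (751 UMIs), a ratio of 0.52 (0.38 to 0.66). The share of T cells with an Il7r UMI was 60.0% and 63.6%, or 27.9% and 36.4% at 1000 UMIs per cell. Mature neutrophils, which should lack it, had 0.242% and 0.161%, at median depths of 2682 and 3304 UMIs against 4206 and 5415. Plasmacytoid dendritic cells had 178 and 173 CPM.

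Natural killer cells showed a higher Il7r level in DKO, 84.6 CPM in WT (38 UMIs in 17 of 99 cells) and 213 CPM in DKO (73 UMIs in 19 of 54 cells). The ratio was 1.31 (0.75 to 1.94), in a class where 11.3% of all genes were higher, and 1.31 without the 5 fullest cells. At 1000 UMIs per cell it was 0.75 and no longer passed the rule. The T cell marker list was lower in these DKO cells, 329 CPM in WT with 2 of 8 markers at 0 and 236 CPM in DKO with 4 at 0, and the natural killer list was 6541 and 5050 CPM. Basophils or mast cells had 53.0 and 92.1 CPM (49 and 73 UMIs) where 6.19% of all genes were higher, and that ratio of 0.79 was 0.07 in thinned cells.

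Il7r was lower in DKO in the early progenitor classes. Stem and multipotent progenitors had 33 UMIs in WT and 1 in DKO, and granulocyte-monocyte progenitors had 81 and 1. The ratios were -3.16 (-9.46 to -1.54) and -4.43 (-10.74 to -2.90), in classes where 4.63% and 2.97% of genes were lower. In WT these UMIs came from 7 of 283 and 27 of 994 cells, and 31 of the 33 UMIs of the stem class lay in its 5 fullest cells. Without the 5 fullest cells of each library the ratio was -0.66 in the stem class and -4.43 in the progenitors. Those 7 and 27 cells held B lineage transcripts at 3476 and 2864 CPM over 12 marker genes, against 155 and 76.1 CPM in the WT cells of the same classes without Il7r. Free RNA could at most bring 51% and 60% of these Il7r UMIs. At a coarser clustering the progenitor ratio was -0.41 and no longer passed the rule. The part of B lineage RNA in the difference was not tested.

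Il2rg, the common gamma chain with which Il7r pairs, was 158 CPM in WT and 134 CPM in DKO in T cells and 165 and 151 CPM in natural killer cells. It was lower in DKO in conventional dendritic cells (89 and 43 UMIs) and plasmacytoid dendritic cells (110 and 33 UMIs) among 16 classes compared. Neither pair held an Il7r call.

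Flt3 is the receptor tyrosine kinase that supports early lymphoid and dendritic precursors. Of the 9 receptors it alone passed the rule over all cells, with 19.8 CPM in WT and 11.8 CPM in DKO. Its ratio was -0.74 (-0.84 to -0.64), where 13.9% of all genes were lower. The call was lost when hemoglobin UMIs were left out of the total (ratio -0.57). The classes that express Flt3 were less frequent in DKO, with plasmacytoid dendritic cells at 2.92% of WT and 1.24% of DKO cells and stem and multipotent progenitors at 1.51% and 0.722%. The gene lies at chr5:147330741-147400489 on the minus strand.

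Inside the classes the Flt3 ratios went both ways. Plasmacytoid dendritic cells had 275 CPM in WT (961 UMIs) and 315 CPM in DKO (537 UMIs), a ratio of 0.20 (0.04 to 0.35). Stem and multipotent progenitors had 131 and 93.9 CPM (497 and 187 UMIs), a ratio of -0.48 (-0.73 to -0.24). A Flt3 UMI was seen in 41.0% of WT and 28.3% of DKO stem cells, against 0.302% and 0.268% of mature neutrophils. At 1000 UMIs per cell it was seen in 10.8% and 1.05% of stem cells. The DKO stem class held 99 cells, so its thinned share rests on very few Flt3-positive cells. In the stem class Kit was thus higher and Flt3 lower in DKO, with both intervals off 0 and neither at 1.5-fold. Cells with both a Kit and a Flt3 UMI were 35.7% of WT and 28.3% of DKO stem cells, and all 28 Flt3-positive DKO cells were also Kit-positive.

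Conventional dendritic cells had 126 CPM of Flt3 in WT (165 UMIs in 191 cells) and 194 CPM in DKO (187 UMIs in 99 cells), a ratio of 0.63 (0.32 to 0.94). The call was lost in thinned cells (0.50) and with the receptors among the clustering genes (0.57). Csf1r was higher in the same class, 171 CPM in WT (224 UMIs) and 274 CPM in DKO (264 UMIs), a ratio of 0.68 (0.42 to 0.95). All 7 receptors compared in this class had ratios above 0, with a median of 0.56, where the median of all genes was 0.12 and 10.1% of all genes were higher.

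Marker sums of the conventional dendritic class moved little for its own list, 1040 CPM in WT and 939 CPM in DKO. The Ly6C-high monocyte list was 3009 and 3086 CPM there and the macrophage list 1541 and 840 CPM, with Csf1r in both of those cell types. With doublets kept the Csf1r ratio was 0.42 and no longer passed the rule. Cells with both a Flt3 and a Csf1r UMI were 14.7% of WT and 31.3% of DKO conventional dendritic cells, where the product of the single shares was 20.5% and 40.1%, so fewer cells carried both than that product. In pro-B cells Flt3 was counted as higher in DKO on 19 against 36 UMIs, and the ratio of 1.02 was 0.13 without the 5 fullest cells.

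Csf1r, the receptor for M-CSF and IL-34 on chromosome 18, marks monocytes, macrophages and their precursors. It was 512 CPM in WT and 495 CPM in DKO Ly6C-low monocytes (127 UMIs in 72 cells and 114 in 49), a class too small in DKO for a ratio. Macrophages had 191 and 208 CPM (ratio 0.13). Ly6C-high monocytes had 171 CPM in WT and 229 CPM in DKO (986 and 904 UMIs, ratio 0.42, 0.29 to 0.55), and granulocyte-monocyte progenitors had 47.3 and 62.7 CPM (ratio 0.41, 0.26 to 0.55). Mature neutrophils had 36.4 and 51.0 CPM (ratio 0.48, 0.23 to 0.75). The mature neutrophil value joined unlike clusters, with ratios of -0.13 (-0.66 to 0.39) in the Retnlg, 0.77 (0.16 to 1.57) in the Cstdc4 and 0.75 (0.39 to 1.13) in the Il1b cluster, and the Cstdc4 cluster was a larger part of the class in DKO.

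Nearly all of the Csf1r of the progenitor class lay in its monocyte arm, with 955 UMIs in WT and 676 in DKO against 18 and 3 in the Elane cluster. Kit and Csf1r shared cells less often than the product of their shares, in 10.6% of WT progenitors against 13.3% and in 14.3% of DKO progenitors against 23.1%. Kit and Csf3r shared cells more often than the product, in 23.3% against 18.9% in WT and in 38.9% against 33.3% in DKO. Among T cells Csf1r was counted as lower in DKO on 21 against 3 UMIs (ratio -1.62, -4.36 to -0.22), as were 7.46% of all genes, and the 3 DKO UMIs were in 1 cell. Free RNA could bring 32.4 UMIs to these WT cells, more than were seen, and the ratio was -0.17 at a coarser clustering. In plasmacytoid dendritic cells it was counted as higher, 20.9 and 32.8 CPM, and that ratio of 0.66 was 0.15 without the 5 fullest cells.

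Ifnar1, a chain of the receptor for type I interferon, the cytokine made downstream of cGAS and STING, was detected in every class and passed the rule in none of 19 compared. Of its ratios, 13 were above 0 and 17 intervals included 0. The highest level was in plasmacytoid dendritic cells, themselves a source of type I interferon, with 124 CPM in WT and 109 CPM in DKO (ratio -0.18, -0.44 to 0.07). Both intervals that excluded 0 lay above it, in Ly6C-high monocytes (49.8 and 69.0 CPM, ratio 0.47, 0.23 to 0.72) and granulocyte-monocyte progenitors (22.4 and 28.5 CPM, ratio 0.35, 0.14 to 0.56). Single clusters inside the classes went both ways. The ratio was 0.68 (0.11 to 1.29) in the Chil3 cluster and 0.80 (0.09 to 1.60) in an early erythroid cluster with 2.21% hemoglobin UMIs. It was -0.74 (-1.29 to -0.19) in a late erythroid cluster with 53.5% hemoglobin UMIs and -0.98 (-2.26 to -0.003) in a stromal cluster. Ifnar1 lies at chr16:91485238-91507441 on the plus strand.

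The partner chain Ifnar2 was 417 CPM in WT and 388 CPM in DKO plasmacytoid dendritic cells and passed the rule once in 19 classes, lower in megakaryocytes (75 and 17 UMIs). Both chains of the type I receptor thus had their highest level in the same class in both libraries.

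Ifngr1, the ligand-binding chain for interferon gamma, was highest in Ly6C-low monocytes at 721 CPM in WT and 798 CPM in DKO, and next in natural killer cells at 637 and 559 CPM. T cells had 367 and 449 CPM (ratio 0.29, 0.14 to 0.44) and Ly6C-high monocytes 311 and 346 CPM. Over all cells it was 104 CPM in WT and 74.5 CPM in DKO (ratio -0.49), and granulocyte-monocyte progenitors, which had 230 and 227 CPM and held 37.9% and 28.8% of its UMIs, were 5.31% of WT and 2.90% of DKO cells. The gene lies at chr10:19591949-19610229 on the plus strand.

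Along the neutrophil clusters Ifngr1 dropped and then came back. It was 287 CPM in WT and 301 CPM in DKO in the Elane cluster and 71.0 and 74.3 CPM in the Chil3 cluster, where Kit and Csf3r changed far less. In the Il1b cluster it was 268 and 204 CPM. The DKO level was lower in the last 3 clusters, with ratios of -0.44, -0.55 and -0.39 and all intervals below 0. As a class mature neutrophils had 177 and 127 CPM (ratio -0.48, -0.61 to -0.34), just under 1.5-fold, and stem and multipotent progenitors had 151 and 118 CPM (ratio -0.35). Pro-B cells passed the rule, lower in DKO at 55.1 and 32.7 CPM (92 and 50 UMIs, ratio -0.74), where 3.4% of all genes were lower. The ratio was -0.39 with the receptors among the clustering genes and -0.84 in thinned cells, and passed the rule in neither.

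Its partner Ifngr2 was spread differently. It was 166 CPM in WT and 198 CPM in DKO in mature neutrophils and 153 and 191 CPM in Ly6C-high monocytes, but 2.23 and 2.91 CPM in natural killer cells (1 UMI each) and 13.9 and 9.52 CPM in T cells, which had high Ifngr1. It passed the rule in none of 16 classes.

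Of the 8 ligands with enough UMIs to compare in any class, 4 could be compared in stromal cells, a class of 214 WT and 99 DKO cells. Of these, 3 were higher there in DKO, where 10% of all genes were higher. Kitl, the Kit ligand, was 1124 CPM in WT (850 UMIs) and 1943 CPM in DKO (801 UMIs), a ratio of 0.79 (0.65 to 0.93). Csf1 was 163 and 361 CPM (123 and 149 UMIs, ratio 1.15, 0.80 to 1.51) and Il7 was 35.7 and 112 CPM (27 and 46 UMIs, ratio 1.62, 0.93 to 2.39). The stromal marker list was also higher in DKO, by 0.37. The cluster with Kitl among its leading genes was 50% of WT and 58.6% of DKO stromal cells. In the cluster led by Cxcl12 and Mgp the mean log2 fold over other cells was 5.23 for stromal and 4.49 for endothelial markers. Per the study, VavCre is also expressed in endothelial cells. The part of stromal purity and of cluster shares in the ligand ratios was not tested. Il34, the other Csf1r ligand, was 204 and 245 CPM (ratio 0.27) and did not pass the rule.

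Other classes were ligand sources too. Csf1 was 295 CPM in WT and 424 CPM in DKO basophils or mast cells (ratio 0.52), more than in stromal cells in both libraries. Flt3l passed the rule in none of 12 classes, and it was 33.4 and 34.9 CPM in natural killer cells and 28.6 and 28.5 CPM in T cells. Il6 was 193 and 238 CPM in basophils or mast cells, and neither Ifng nor Tslp passed the rule in any of 2 classes. Kitl was also lower in DKO in mature neutrophils, early and late erythroid cells, on 22 against 13, 17 against 10 and 25 against 11 UMIs, in classes where 10.3%, 9.85% and 51.9% of all genes were lower.

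Among the kinases and transcription factors that carry these signals, 4 of 211 gene and class pairs were higher in DKO (1.90%) and 25 were lower (11.8%), against 6.32% and 8.05% of all gene and class pairs. Among feedback regulators and direct targets 26 of 270 were higher (9.63%) and 32 lower (11.9%), and among partner chains and related receptors 32 of 353 (9.07%) and 25 (7.08%). The lower pairs of the kinase list included Irf9, which acts below the type I interferon receptor, in 5 of 19 classes. In early erythroid cells Stat2, its partner there, was 15.7 CPM in WT and 7.15 CPM in DKO (ratio -1.13). Late erythroid and plasma cells, where 51.9% and 18.1% of all genes were lower, gave many of the others.

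Usp18, an interferon-induced protein that binds the type I receptor and damps it, was the only gene of the kinase and feedback lists that passed the rule in most of its classes. It was lower in DKO in 9 of 13, with a median ratio of -0.98. In early erythroid cells it was 16.7 CPM in WT and 6.47 CPM in DKO (274 and 152 UMIs, ratio -1.36, -1.66 to -1.07), and in T cells 27.8 and 8.05 CPM (68 and 11 UMIs, ratio -1.68, -2.86 to -0.86). In stem and multipotent progenitors it was 9.77 and 2.51 CPM (37 and 5 UMIs), and in mature neutrophils 22.6 and 11.4 CPM (116 and 79 UMIs). The mRNA of Ifnar1, whose protein sits beside it, passed the rule in none of those classes.

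For each receptor up to 3 genes with the most similar levels over the 20 classes, both libraries pooled, were listed by Pearson's r of log2(CPM + 5). The classes share their libraries, so r is a description without a p. Epor was most like Tom1l1 (0.94), C530008M17Rik (0.93) and Samd14 (0.93), and Kit was most like Dipk1b (0.84), Adgrl4 (0.80) and 2900052L18Rik (0.77). Csf3r was most like Clec4e (0.93), Siglece (0.92) and Mtus1 (0.91), the first of which encodes a myeloid lectin, and Csf2rb was most like Hk2 (0.93) and Fes (0.90).

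Il7r was most like Atp1b1 (0.88), Jakmip1 (0.87) and Ddc (0.86), and Flt3 was most like Bex6 (0.93) and Kcnk12 (0.83). The closest gene to any receptor was 0610040J01Rik for Csf1r (0.97), followed by the myeloid genes Clec4a3 (0.96) and Adgre1 (0.95), the latter encoding the macrophage marker F4/80. Ifnar1 was most like Slfn8 (0.94), Trim30a (0.92) and Trim30d (0.90), of which Trim30a is a known interferon-inducible gene. Ifngr1 was most like Otulinl (0.91), Efhd2 (0.90) and Tnfrsf1b (0.89).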

How the data were processed

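Femoral marrow of both mice was profiled with a droplet 3′ assay, and the authors ran Cell Ranger 7.1.0, per the file headers, against mm10. Whether intronic reads were counted is not given in the sources used here. The deposited values are raw UMI counts per gene and barcode. The WT table held all 1194299 barcodes with a UMI and that of DKO held 14142 called cells.

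WT cells were called against the profile of droplets under 100 UMIs (false discovery rate 0.01). Cells over 20% mitochondrial UMIs were left out, and so were doublets scored by Scrublet, 348 in WT and 208 in DKO. Normalized profiles (2000 variable genes, 30 components, 15 neighbors, Leiden resolution 2) gave 44 clusters, 7 of which stayed unnamed. UMIs were summed by class and library. Ratios carried 1 added count in each library and an exact conditional binomial interval, and levels an exact Poisson interval. No statistical test was run. Cell calling and ratios were tested on simulated data. Positions used GRCm38. Promoters came from RefSeq and were taken for 7 of the 9 receptors, since Csf1r, on chromosome 18, was left out and Csf2rb had no entry.

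The receptors, gene lists and markers were chosen with earlier results of these data known. Named were all receptors, their 3 most similar genes, 6 partner chains, ligands with at least 20 UMIs in a class and listed signalling genes past 1.5-fold in most classes, and a few of these genes are not reported here. Total UMIs of kept cells were 119239857 in WT and 114664975 in DKO. Software was Python 3.11.15, numpy 2.4.6, scipy 1.17.1, scanpy 1.11.5 and igraph 0.11.9.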

Additional observations from a re-analysis of the deposited data

Results flagged for a closer look

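Il7r was also high in a cluster that carried no class name and entered none of the comparisons above. The cluster was led by Gata3, Rnf128 and Pard3, and it held 17 WT and 39 DKO cells. Il7r was 857 CPM in the WT cells (56 UMIs, 647 to 1113) and 1073 CPM in the DKO cells (193 UMIs, 927 to 1235). Both values lie above those of the pre-B and immature B class, 522 and 593 CPM. The cluster was singled out after its values were seen, and its cells were not assigned to a cell type.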

How the results depend on the processing

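With 1 library per genotype no replicate could be left out. No paired analysis was possible because each genotype is 1 library and the results come from no test. Against 11 higher and 17 lower of 123 receptor pairs, barcodes above the order-of-magnitude UMI threshold gave 7 higher of 87. A minimum of 50 UMIs gave 6 lower of 93, and cells thinned to 1000 UMIs gave 3 higher and 4 lower of 64. Lower pathway pairs went from 85 of 866 to 51 of 591 under the first of these settings and 27 of 479 under the last. The sign of a called ratio changed for Csf3r in plasmacytoid dendritic cells (-0.26 with doublets kept) and for Kit in Ly6C-high monocytes (0.034 at Leiden resolution 1.0). The causes were not tested. Of 29 called ratios (28 in classes and Flt3 over all cells), 29 kept their call with 10% mitochondrial UMIs as the limit and also without the 75 shared barcodes, a setting added after the data were seen. Without hemoglobin UMIs 26 kept it, with doublets kept 21 did, and with receptors among the variable genes 22 of 27 did. Counts under 20 UMIs limit most calls outside the main class of a receptor.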

Other observations

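Tgfbr1, a receptor chain for TGF-beta, stood apart from the other related receptors. It was higher in DKO in 13 of 19 classes with a median ratio of 0.76, and lower in none. In mature B cells it was 41.5 CPM in WT and 104 CPM in DKO (187 and 402 UMIs, ratio 1.32, 1.07 to 1.58), and in granulocyte-monocyte progenitors 24.7 and 56.0 CPM (509 and 607 UMIs, ratio 1.18, 1.01 to 1.35). In Ly6C-high monocytes it was 40.1 and 89.2 CPM. The gene was singled out after its values were seen.

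Other receptors of the same list were higher in DKO in myeloid cells. Il6ra, the IL-6 receptor, was 276 CPM in WT and 461 CPM in DKO in Ly6C-high monocytes (ratio 0.74, 0.64 to 0.83) and 30.5 and 49.6 CPM in immature neutrophils. Il10ra, the IL-10 receptor chain, was higher in 5 of 16 classes, among them Ly6C-high monocytes at 87.4 and 142 CPM and mature B cells at 74.9 and 120 CPM. In stromal cells, where the cluster shares differed between the libraries, Kitl, Csf1 and Il7 were higher as well. Lepr, the leptin receptor that marks niche cells, was 991 CPM in WT and 1548 CPM in DKO there, and Pdgfrb was 186 and 374 CPM. These genes were named after their values were seen.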
